A study of Mus musculus with 4 samples.

Results

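Mitochondrially encoded transcripts were examined in mouse haematopoietic stem and progenitor cells with and without Setd2. The members were all rows of the deposited expression table whose gene name begins with mt-, which gave 37 of 46517 rows. They comprised 13 protein-coding genes, each called a messenger RNA here, 2 ribosomal RNAs and 22 transfer RNAs. The libraries were made from LSK cells, the bone marrow fraction that lacks lineage antigens and carries Sca-1 and c-Kit, sorted from C57BL/6 mice aged 8 to 10 weeks. The compared genotypes were Setd2D/D, in which Setd2 is knocked out, and Setd2f/f, which carries the functional floxed allele, with 2 libraries each. Setd2 encodes the methyltransferase that trimethylates lysine 36 of histone H3 in transcribed genes. The sources used here do not give what drove the deletion, how many mice went into a library or whether RNA strand was kept. As nothing says that the libraries came from separate mice, p-values measure only the spread between libraries, and that spread may be technical. Levels are TPM, an abundance unit that is divided by a length for each gene and scaled to the same total in every library. It keeps no sequencing depth, so no counting interval can be given.

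The mitochondrial genome is a small circle that is transcribed from both strands into long precursors. These are cut, mostly at the transfer RNAs that lie between the other genes, into messenger, ribosomal and transfer RNAs. All its messenger RNAs encode subunits of the oxidative phosphorylation system, namely of NADH dehydrogenase (complex I), the cytochrome bc1 complex (complex III), cytochrome c oxidase (complex IV) and ATP synthase (complex V). Nuclear chromosomes also hold inserted copies of mitochondrial DNA. Haematopoietic stem cells are known for low mitochondrial respiration, which rises as they differentiate.

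The genotype was checked first. Setd2 stood at 43.4 and 49.5 TPM in Setd2D/D, against 78.9 and 68.0 TPM in Setd2f/f, and the groups did not overlap (limma log2 change -0.65, SE 0.15, adjusted p = 0.329). This is a level over the whole gene, and the deleted exons cannot be read from it. Each library held 14360 to 14610 genes at 1 TPM or more, and replicate libraries correlated across genes at r = 0.91 in Setd2D/D and r = 0.96 in Setd2f/f. Of the gate's own genes, Kit was at 301 and 285 TPM in Setd2D/D and 224 and 249 TPM in Setd2f/f, while Ly6a, which encodes Sca-1, was at 46.5 and 80.6 TPM in Setd2D/D and 128 and 124 TPM in Setd2f/f. Listed with them, Cd34 was at 520 and 476 TPM in Setd2D/D and 773 and 747 TPM in Setd2f/f. Flt3 was at 276 and 223 TPM in Setd2D/D and 332 and 279 TPM in Setd2f/f. All 14 markers of lineage-positive cells reported here were found in the table, and their summed level was 318 and 361 TPM in Setd2D/D and 214 and 175 TPM in Setd2f/f. The sets did not all lie one way: T cell markers summed to 0.09 and 2.76 TPM in Setd2D/D and 15.4 and 4.32 TPM in Setd2f/f, B cell markers to 19.5 and 21.4 TPM in Setd2D/D and 46.0 and 22.8 TPM in Setd2f/f, and macrophage markers to 6.18 and 7.21 TPM in Setd2D/D and 9.56 and 8.34 TPM in Setd2f/f. Granulocyte and monocyte markers summed to 150.4 and 204 TPM in Setd2D/D and 113 and 112 TPM in Setd2f/f, and platelet markers to 50.2 and 53.5 TPM in Setd2D/D and 23.4 and 21 TPM in Setd2f/f. Most of the granulocyte and monocyte sum was Ly6c2 (133 and 181 TPM in Setd2D/D, 89.6 and 90.1 TPM in Setd2f/f). Itgam of that set was lower in both Setd2D/D libraries (17.7 and 20.25 TPM, against 22.9 and 21.1 TPM in Setd2f/f), and Ly6g overlapped. Of the macrophage markers, Adgre1 was higher and C1qa lower in both Setd2D/D libraries. The globin genes among the 14 markers, Hba-a1 and Hbb-bs, summed to 91.9 and 72.8 TPM in Setd2D/D and 7.48 and 6.64 TPM in Setd2f/f. The part of these markers in the mitochondrial levels was not tested. In bulk RNA, fewer cells of a type and less RNA per cell cannot be told apart.

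The nuclear copies bear on every value of 7 members and are given first. The reference transcripts (GENCODE M21, build GRCm38, which is mm10) were searched for sequences resembling the members. Of the 13 messenger RNAs, 7 had an annotated nuclear copy with at least 99% identity over at least 95% of the copy, and all 7 copies lie next to one another on chromosome 1, minus strand, within chr1:24611535-24616197. They are Gm29216 (matching the last 483 bases of mt-Co1), Gm28661 (mt-Co2), Gm10925 (mt-Atp6), Gm28437 (mt-Co3), Gm28438 (mt-Nd3), Gm10222 (mt-Nd4l) and Gm28439 (the first 876 bases of mt-Nd4), each annotated as an unprocessed pseudogene. The copies of mt-Co2, mt-Atp6, mt-Co3, mt-Nd4l and mt-Nd4 were identical to the gene along the whole aligned stretch, the copy of mt-Nd3 differed at 1 of 345 aligned bases (T3C, gene base first, counted from the gene's 5′ end) and the copy of mt-Co1 at 1 of 483 (A1066T). The other 9 annotated matches had at most 97.6% identity and at most 0.895 TPM on average, so mt-Atp8, mt-Cytb, mt-Nd1, mt-Nd2, mt-Nd5 and mt-Nd6 had no near-identical copy among the annotated transcripts.

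The sequences below, from GENCODE M21, are shown because the gene and its copy read alike in them. The first 60 bases of mt-Co3 (chrM:8607-8666, plus strand) and of its copy (chr1:24613912-24613971, minus strand) are the same letters, and the first 60 bases of mt-Nd3 (chrM:9459-9518, plus strand) and its copy (chr1:24613060-24613119, minus strand) differ at the base in capitals.
mt-Co3: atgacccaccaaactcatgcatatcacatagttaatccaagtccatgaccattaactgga
Gm28437: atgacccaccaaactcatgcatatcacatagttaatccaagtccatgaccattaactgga
mt-Nd3: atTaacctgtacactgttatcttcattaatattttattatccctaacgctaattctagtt
Gm28438: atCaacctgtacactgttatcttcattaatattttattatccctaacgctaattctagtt

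The table carried very high levels on several of these pseudogene rows. Gm28437, the copy of mt-Co3, was at 7215 and 6943 TPM in Setd2D/D and 7223 and 5563 TPM in Setd2f/f. The mt-Co3 row itself, for the third subunit of cytochrome c oxidase, was at 0.26 TPM in both Setd2D/D libraries, against 0.27 and 140 TPM in Setd2f/f. Thus 3 of the 4 libraries, 1 of them Setd2f/f, had nearly the same low value, and Setd2f/f replicate 2 alone stood above them. Each gene's level was therefore also computed with its copy, whose TPM was multiplied by the share of the gene that it covers. Of the summed mt-Co3 level, the mt-Co3 row held 0.0036% and 0.0037% in Setd2D/D and 0.0037% and 2.46% in Setd2f/f. The split varied between libraries of 1 genotype as well as between genotypes. For mt-Nd3, a small membrane subunit of complex I, the gene's row held 85.8% and 22.8% of the sum in Setd2D/D and 71.4% and 47.3% in Setd2f/f. For mt-Co2, the copper-binding subunit of cytochrome c oxidase, it held 1.65% and 3.59% in Setd2D/D and 9.39% and 8.03% in Setd2f/f. For mt-Atp6, the proton channel subunit of ATP synthase, it held 4.98% and 12.5% in Setd2D/D and 11.6% and 10.8% in Setd2f/f. The rows of mt-Co1, mt-Nd4 and mt-Nd4l held between 93.4% and 100% of their sums in every library. Levels and changes of the 7 genes on their own rows are uncertain for this reason, and whether any transcript came from the nuclear copies was not tested.

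**Figure D1:**
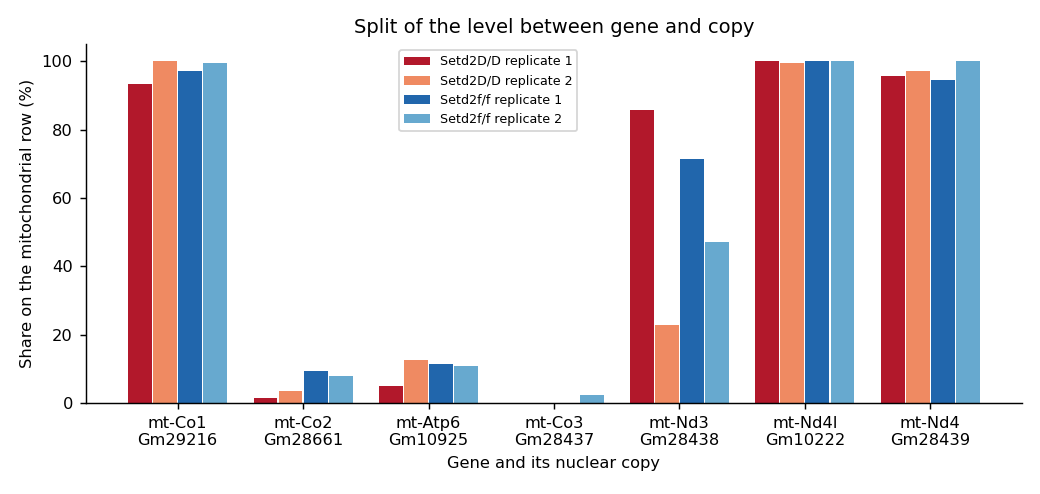
Share of each gene's summed level (gene plus nuclear copy, in %) that the table gives to the mitochondrial row, for the 7 genes with a near-identical copy, with 1 bar per library. The share is under 13% for mt-Co2, mt-Atp6 and mt-Co3 in all 4 libraries and ranges from 22.8% to 85.8% for mt-Nd3.

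Taken over all messenger RNAs, the mitochondrial level was higher in both Setd2D/D libraries than in either Setd2f/f library. The 13 own rows summed to 40141 and 36445 TPM in Setd2D/D and 31993 and 26096 TPM in Setd2f/f, a ratio of means of 1.32. With the nuclear copies the sums were 72083 and 63928 TPM in Setd2D/D and 57743 and 45739 TPM in Setd2f/f, a ratio of 1.31. The mitochondrial messenger RNAs thus made up between 6.39% and 7.21% of all TPM in Setd2D/D and between 4.57% and 5.77% in Setd2f/f, copies included. With the copies, all 13 messenger RNAs were lowest in Setd2f/f replicate 2 and 12 of 13 were highest in Setd2D/D replicate 1. The Setd2f/f libraries themselves differed by a median of 1.26-fold across the 13 messenger RNAs, close to the median ratio of 1.31 between the genotypes.

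No single member passed the test, which Setd2 itself did not pass either. On log2(TPM + 1), limma with Benjamini-Hochberg adjustment over the 14755 genes that passed a filter of 1 TPM in 2 libraries placed 0 of the 14 tested members past an adjusted p of 0.05, against 0.0203% of all genes called higher and 0.0474% called lower. The 14 were the 2 ribosomal RNAs and every messenger RNA but mt-Co3, which reached a TPM of 1 in 1 library only. An unadjusted p under 0.05 was found for 5 members with higher and 1 with lower levels, against 4.17% and 6.99% of all tested genes. With the copies summed, 0 of 15 passed, against 0.0203% of all genes called higher and 0.0475% called lower. There 5 had an unadjusted p under 0.05 with higher levels and 0 with lower, against 4.19% and 7% of all genes. On their own rows, 10 of 12 messenger RNAs had a log2 change above 0 and the median was 0.37, against 42.1% of all tested genes above 0 and a median of -0.06. With the copies, 13 of 13 were above 0, between 0.14 and 0.81, with a median of 0.39. After quantile normalisation 10 of 13 were above 0 with the copies, with mt-Co1 at -0.28, mt-Co3 at -0.12 and mt-Co2 at 0. Without Setd2f/f replicate 2, 12 of 13 were above 0 and the median was 0.22, with mt-Co3 at -0.029. The own rows of 8 messenger RNAs were higher in both Setd2D/D libraries than in both Setd2f/f libraries and 2 were lower (mt-Co2 and, by 0.01 TPM, mt-Co3), against 16.8% of tested genes higher and 27.6% lower in this way; with copies, 11 were higher and 2 overlapped.

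**Figure D2:**
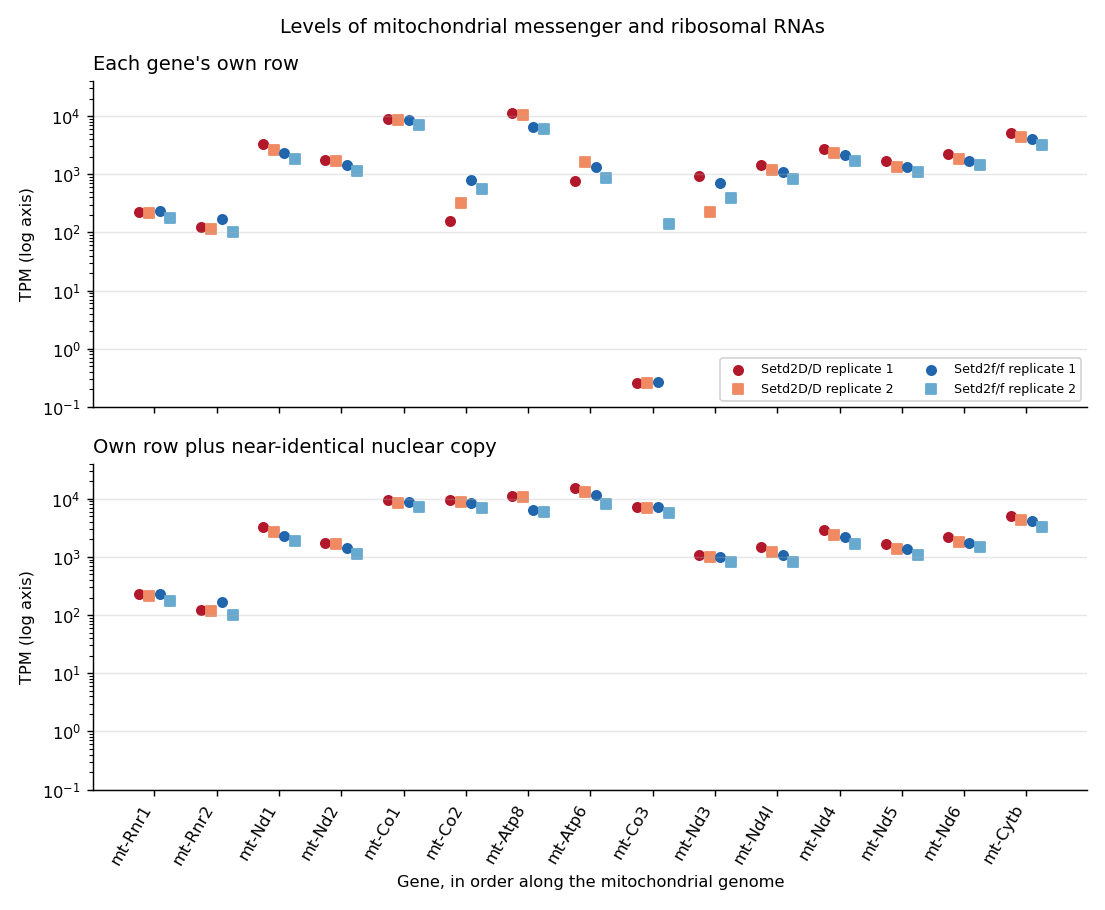
TPM (log axis) of the 13 messenger and 2 ribosomal RNAs of mitochondria in each of the 4 libraries, on their own rows above and with near-identical nuclear copies below, 1 point per library. The scatter of mt-Co2, mt-Atp6, mt-Co3 and mt-Nd3 in the upper panel is not seen in the lower one, where every messenger RNA is lowest in Setd2f/f replicate 2.

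The authors' deposited table of the comparison lists 16 members, of which 6 were higher in Setd2D/D at an FDR under 0.05, 2 were lower and 8 did not pass. By this rule 1.51% of the 23955 genes in the authors' deposited table were called higher and 1.64% lower. The 6 were mt-Atp8, mt-Nd1, mt-Nd4l, mt-Nd4, mt-Cytb and mt-Nd2, and apart from mt-Nd4 and mt-Nd4l these have no near-identical copy. The 2 lower members, mt-Co2 and mt-Co3, are genes whose level lies mostly on a copy's row. The authors' deposited table gives mt-Co3 a log2 fold change of -8.01 (FDR = 8.97e-70), with an F value that is number 2 of the whole table. With its copy, mt-Co3 was at 7206 and 6934 TPM in Setd2D/D and 7214 and 5696 TPM in Setd2f/f, so the groups overlapped (log2 change 0.14, SE 0.14, limma adjusted p = 0.736). For mt-Co2, the authors' deposited table has a log2 fold change of -1.46 (FDR = 5.4e-24). The mt-Co2 row was at 158 and 317 TPM in Setd2D/D and 805 and 560 TPM in Setd2f/f (log2 change -1.58, SE 0.37, limma adjusted p = 0.329). With its copy, mt-Co2 was at 9608 and 8823 TPM in Setd2D/D and 8567 and 6976 TPM in Setd2f/f, the opposite direction (log2 change 0.25, SE 0.13, limma adjusted p = 0.538). The authors' deposited table lists the 7 copies too and has 4 of them higher (Gm29216, Gm28439, Gm10925 and Gm28661) and 0 lower. Of these, Gm10925 and Gm28661 had higher TPM in both Setd2D/D libraries. Gm29216 was at 2005 and 0 TPM in Setd2D/D and 807 and 131 TPM in Setd2f/f, with overlapping groups. Gm28439 was at 192 and 106 TPM in Setd2D/D and 194 and 0 TPM in Setd2f/f, again overlapping.

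Among the complex I genes, which encode the membrane arm of the proton-pumping NADH dehydrogenase, 6 of 7 had higher own rows in both Setd2D/D libraries than in both Setd2f/f libraries, and 7 of 7 did so with the copies, against 16.8% of all tested genes. The gene mt-Nd1 was at 3284 and 2625 TPM in Setd2D/D and 2308 and 1848 TPM in Setd2f/f (log2 change 0.51, SE 0.17, limma adjusted p = 0.418). Both Setd2D/D values lay above both Setd2f/f values, as they did for the next 3 genes. The gene mt-Nd2 was at 1756 and 1658 TPM in Setd2D/D and 1443 and 1129 TPM in Setd2f/f (log2 change 0.42, SE 0.14, limma adjusted p = 0.423). Without Setd2f/f replicate 2 the log2 change of mt-Nd2 was 0.24, and with any 1 library left out that of mt-Nd1 lay between 0.35 and 0.67. The longest member, mt-Nd5, was at 1683 and 1358 TPM in Setd2D/D and 1342 and 1082 TPM in Setd2f/f. The only messenger RNA annotated on the minus strand, mt-Nd6, was at 2228 and 1799 TPM in Setd2D/D and 1715 and 1448 TPM in Setd2f/f. It overlaps mt-Nd5 by 14 bases on the opposite strand, and without strand its reads cannot be told apart from antisense RNA of the other strand. The paired genes mt-Nd4l and mt-Nd4, whose reading frames overlap by 7 bases, had log2 changes of 0.48 and 0.42 on their own rows. With the copies, mt-Nd4l was at 1454 and 1205 TPM in Setd2D/D and 1077 and 831 TPM in Setd2f/f, and mt-Nd4 at 2844 and 2384 TPM in Setd2D/D and 2227 and 1672 TPM in Setd2f/f.

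The remaining complex I gene, mt-Nd3, had the widest SE of the tested members on its own row. That row was at 921 and 227 TPM in Setd2D/D and 711 and 386 TPM in Setd2f/f, and the SE of its log2 change of -0.20 was 0.71. Replicates of each genotype were then far apart and the groups overlapped. With its copy, mt-Nd3 was at 1073 and 996 TPM in Setd2D/D and 995 and 816 TPM in Setd2f/f, with a log2 change of 0.20 and an SE of 0.13 (limma adjusted p = 0.594). The lower Setd2D/D value was then 996.3 TPM and the higher Setd2f/f value 995.2 TPM, so the groups were nearly touching.

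The single complex III gene, mt-Cytb for cytochrome b, was at 5136 and 4372 TPM in Setd2D/D and 4070 and 3196 TPM in Setd2f/f (log2 change 0.39, SE 0.16, limma adjusted p = 0.463). The groups did not overlap, and the ratio of means was 1.31. With a library left out the log2 change of mt-Cytb lay between 0.22 and 0.57, lowest where Setd2f/f replicate 2 was the one left out. With the copies, the complex IV genes had ratios of means between 1.10 and 1.19, whereas the own rows of mt-Co2 and mt-Co3, given above, were lower in Setd2D/D. The gene mt-Co1, the catalytic subunit of cytochrome c oxidase, was at 8830 and 8469 TPM in Setd2D/D and 8647 and 7015 TPM in Setd2f/f, and the groups overlapped with and without the copy (own-row log2 change 0.15, SE 0.13, limma adjusted p = 0.697). That change was 0.30 without Setd2f/f replicate 1, 0.00011 without Setd2f/f replicate 2 and -0.30 after quantile normalisation. Summed over the complex IV genes and their copies, the level was 26272 and 24226 TPM in Setd2D/D and 24680 and 19728 TPM in Setd2f/f, again overlapping.

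The highest ratio of mean levels among the messenger RNAs was that of mt-Atp8, a short membrane subunit of ATP synthase. It was at 11215 and 10497 TPM in Setd2D/D and 6449 and 5920 TPM in Setd2f/f, with means of 10856 ± 508 TPM in Setd2D/D and 6184 ± 374 TPM in Setd2f/f (SD, n = 2 libraries each). The ratio of means was 1.76, and the gap between the genotypes was larger than that between replicates. In limma its log2 change of 0.81 (SE 0.10) had an adjusted p of 0.140, the lowest of the members. That change lay between 0.75 and 0.87 with any 1 library left out and was 0.41 after quantile normalisation. The authors' deposited table gives mt-Atp8 a log2 fold change of 0.86 (FDR = 2.9e-09). The gene spans 204 bases (chrM:7766-7969) and has no near-identical annotated copy by the rule used here. The unannotated stretch between the copies of mt-Co2 and mt-Atp6 on chromosome 1, where a copy of mt-Atp8 would lie, was not examined. The last 43 bases of mt-Atp8, in capitals below, are also the first 43 bases of mt-Atp6. The copy Gm10925 matches bases 1 to 678 of mt-Atp6 without a difference. Reads from those 43 bases could thus belong to any of these rows. Levels per gene do not show whether mt-Atp8 and mt-Atp6 lie on 1 RNA, so they need not be levels of separate messages.
mt-Atp8: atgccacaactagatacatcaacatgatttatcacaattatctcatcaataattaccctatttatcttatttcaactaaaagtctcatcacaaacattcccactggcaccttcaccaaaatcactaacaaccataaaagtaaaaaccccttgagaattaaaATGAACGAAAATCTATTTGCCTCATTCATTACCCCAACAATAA

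The level of mt-Atp8 against other genes depends on the length used for TPM. By mean TPM of own rows over the 4 libraries, mt-Atp8 was number 1 of the 15 messenger and ribosomal RNAs, at 8520 TPM, just ahead of mt-Co1 at 8240. With the copies, mt-Atp6 was number 1, at 11864 TPM, mt-Atp8 number 2 and mt-Co2 number 3, at 8493 TPM. The authors' deposited table gives mean CPM (reads as a part of the library total, not divided by length). By CPM of own rows mt-Atp8 was number 7, at 738 CPM, against 8023 CPM for mt-Co1. The copy row Gm10925, left out of that ranking, was at 4315 CPM. The overlapping mt-Atp6 was at 754 and 1607 TPM on its own row in Setd2D/D and at 1323 and 870 TPM in Setd2f/f, with overlapping groups. With its copy, mt-Atp6 was at 15139 and 12808 TPM in Setd2D/D and 11438 and 8070 TPM in Setd2f/f, and the groups no longer overlapped (log2 change 0.54, SE 0.20, limma adjusted p = 0.439).

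**Figure D3:**
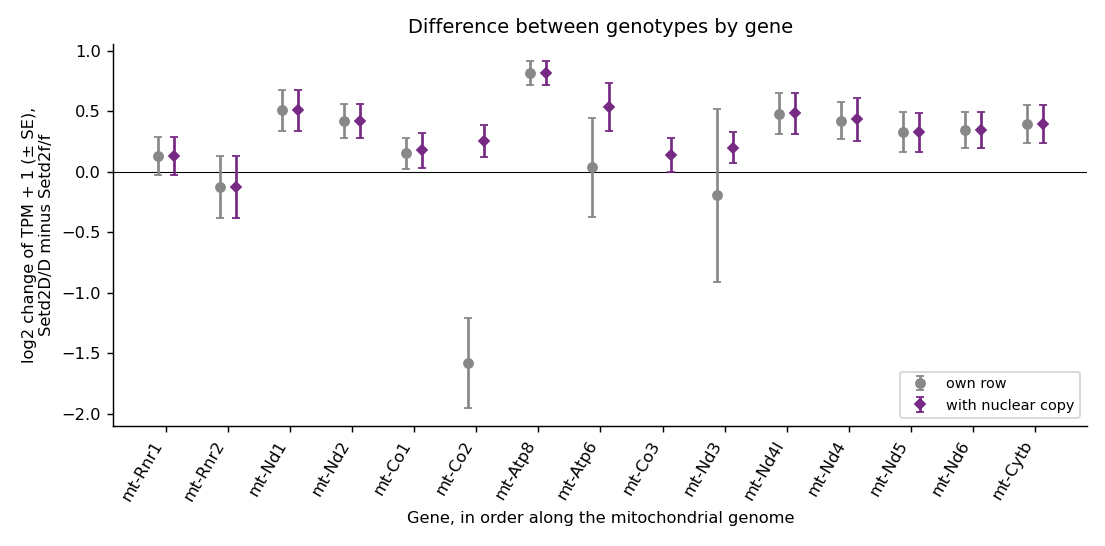
The limma log2 change (Setd2D/D minus Setd2f/f, on log2(TPM + 1), ± SE, 2 libraries per genotype) of each mitochondrial messenger and ribosomal RNA, in genome order, on its own row (grey circles) and with its near-identical copy (purple diamonds). With the copies all 13 messenger RNAs lie above 0, from 0.14 for mt-Co3 to 0.81 for mt-Atp8 (10 of 13 after quantile normalisation, which is not drawn); mt-Co3 has no grey point because its own row was not tested.

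The makeup of the mitochondrial messenger RNA pool, which does not depend on scaling a library by a single factor, also differed between the genotypes. With the copies, complex V genes made up 36.6% and 36.5% of the pool in Setd2D/D and 31.0% and 30.6% in Setd2f/f. Complex IV genes made up 36.4% and 37.9% in Setd2D/D and 42.7% and 43.1% in Setd2f/f. Both differences, 5.73 percentage points for complex V and -5.76 for complex IV, were larger than the spread between replicates, whose SD was at most 1.02 points. The shares of complex I genes (19.9% and 18.8% in Setd2D/D, 19.2% and 19.3% in Setd2f/f) and of mt-Cytb (7.12% and 6.84% in Setd2D/D, 7.05% and 6.99% in Setd2f/f) overlapped. On the own rows alone, complex V was again higher (29.8% and 33.2% in Setd2D/D, 24.3% and 26.02% in Setd2f/f) and complex IV lower (22.4% and 24.1% in Setd2D/D, 29.5% and 29.6% in Setd2f/f). The mt-Atp8 share alone was 15.6% and 16.4% in Setd2D/D and 11.2% and 12.9% in Setd2f/f with the copies. With mt-Atp8 taken out of the own-row pool, the difference of the mt-Co1 share was -2.73 percentage points, against -4.34 with it. The mt-Cytb share was then 17.8% and 16.8% in Setd2D/D and 15.9% and 15.8% in Setd2f/f, no longer overlapping, and the shares of mt-Nd1, mt-Nd2, mt-Nd4 and mt-Nd4l were likewise higher in both Setd2D/D libraries. Shares within a pool move against each other, these were not tested, and an exact permutation test of 2 libraries against 2 cannot go below p = 0.33.

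**Figure D4:**
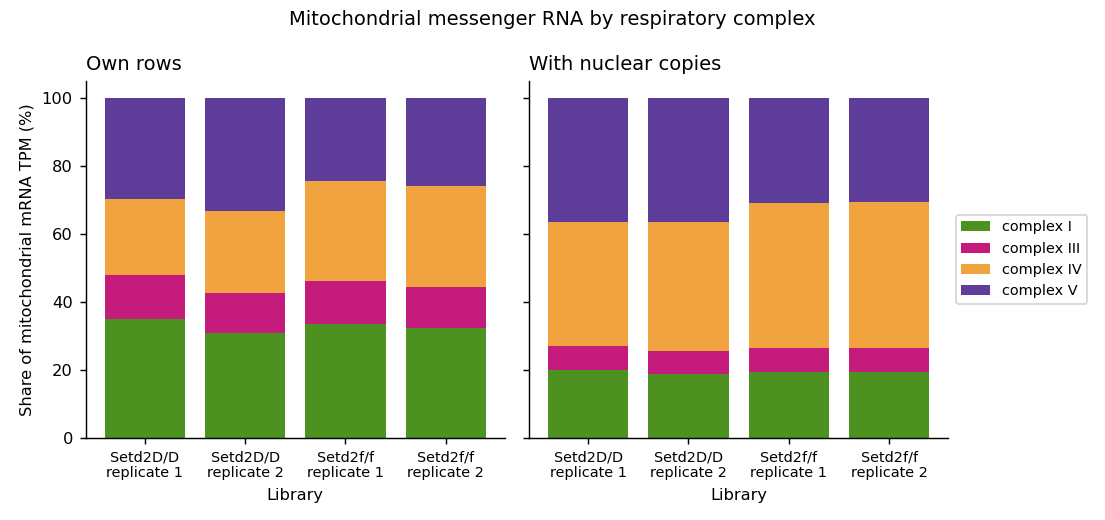
Share (%) of the summed TPM of the 13 mitochondrial messenger RNAs that belongs to complexes I, III, IV and V in each of the 4 libraries, from own rows (left) and with near-identical nuclear copies (right). With copies the complex V share is 36.6% and 36.5% in Setd2D/D and 31.0% and 30.6% in Setd2f/f, and the complex IV share is lower in Setd2D/D.

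The ribosomal RNAs, the structural RNAs of the mitochondrial ribosome, had overlapping levels in the genotypes. The small subunit RNA mt-Rnr1 was at 228 and 216 TPM in Setd2D/D and 233 and 177 TPM in Setd2f/f (log2 change 0.13, SE 0.16, limma adjusted p = 0.798). The large subunit RNA mt-Rnr2 was at 123 and 115 TPM in Setd2D/D and 168 and 101 TPM in Setd2f/f (log2 change -0.12, SE 0.26, limma adjusted p = 0.889). In both cases both Setd2D/D values lay between those of the Setd2f/f libraries, and the search gave no annotated nuclear match for either gene. Together they summed to 351 and 331 TPM in Setd2D/D and 401 and 278 TPM in Setd2f/f. They thus lay far below most messenger RNAs, in libraries that the design text calls mRNA-seq, and how RNA was selected was not stated.

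All 22 transfer RNAs were listed at 0 TPM in every library. They span 59 to 75 bases. Of the 1018 rows of the table with a merged exon length of up to 75 bases, 1 was above 0 in any library, the nucleolar RNA gene Snord66 (chosen here after its values were seen), whereas 35 of them are listed in the authors' deposited table of the comparison. Among these is mt-Ts1, a serine transfer RNA, with a mean log2 CPM of -2.73 in the authors' deposited table, although its TPM is 0 throughout. An entry of 0 TPM for a mitochondrial transfer RNA is therefore given as a listing, not as absence.

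Nuclear genes that act on mitochondrial DNA, RNA and protein synthesis were followed in 5 lists. Of the 168 tested genes, limma placed 0 past an adjusted p of 0.05. A log2 change above 0 was found for 62 and one below 0 for 106, against 42.1% of all tested genes above 0. An unadjusted p under 0.05 was found for 2 with higher and 13 with lower levels, against 4.17% and 6.99% of all tested genes, and the median log2 change was -0.05, against -0.06 over all genes tested (0.00458 against -0.0172 after quantile normalisation). At an FDR under 0.05 the authors' deposited table has 0 of these genes higher and 1 lower, against 1.51% and 1.64% of all its genes. The 1 is the mitochondrial ribosomal protein gene Mrpl23 (log2 fold change -0.80, FDR = 0.0282), for which Setd2D/D replicate 1 had 15.7 TPM and the other 3 libraries between 81.1 and 110.4 TPM. Of the 22 genes for mitochondrial transcription and DNA, 7 had a change above 0 and 15 below, with a median of -0.07. Polrmt, the mitochondrial RNA polymerase, was at 26.1 and 28.6 TPM in Setd2D/D and 28.4 and 33.0 TPM in Setd2f/f, with overlapping groups. Tfam, which packages mitochondrial DNA and activates its transcription, was at 79.4 and 80.9 TPM in Setd2D/D and 115 and 89.0 TPM in Setd2f/f (limma adjusted p = 0.504), lower in both Setd2D/D libraries. Mterf2, of the mitochondrial termination factor family, was at 2.90 and 5.41 TPM in Setd2D/D and 10.2 and 8.79 TPM in Setd2f/f (limma adjusted p = 0.418). Dguok was also lower in both Setd2D/D libraries (limma adjusted p = 0.475). Primpol was higher in both, at 24.0 and 19.25 TPM against 14.8 and 16.6 TPM in Setd2f/f (limma adjusted p = 0.504). Its log2 fold change in the authors' deposited table was -0.04 (FDR = 0.970).

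Of the 31 RNA processing and stability genes, 12 were above 0 and 19 below (median log2 change -0.02). Nsun4, a methyltransferase of mitochondrial ribosomal RNA, had the smallest p of this list, with 15.8 and 13.6 TPM in Setd2D/D and 29.3 and 26.6 TPM in Setd2f/f (log2 change -0.89, SE 0.18, limma adjusted p = 0.298). In the authors' deposited table its log2 fold change was -0.09 (FDR = 0.941). Nsun3, which modifies the mitochondrial methionine transfer RNA, was at 8.13 and 11.99 TPM in Setd2D/D and 17.2 and 21.6 TPM in Setd2f/f (limma adjusted p = 0.401). Angel2 and Fastk, the other two of the smallest p-values, were also lower in both Setd2D/D libraries (limma adjusted p = 0.407 and 0.446). The authors' deposited table also has smaller log2 fold changes than limma for Nsun3 (-0.26 against -0.90) and Angel2 (-0.14 against -0.51). Lrpprc, which stabilises mitochondrial messenger RNAs, was at 45.9 and 43.7 TPM in Setd2D/D and 34.8 and 43.1 TPM in Setd2f/f (limma adjusted p = 0.670), higher in both Setd2D/D libraries by less than the gap between the Setd2f/f libraries.

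Of the 79 mitochondrial ribosomal protein genes, 32 were above 0 and 47 below (median -0.04), and Mrpl24 had the smallest p, with 103 and 127 TPM in Setd2D/D and 183 and 164 TPM in Setd2f/f (limma adjusted p = 0.332). Mrpl14, Mrps5 and Mrpl52, which followed it, were lower in both Setd2D/D libraries as well (limma adjusted p = 0.341, 0.390 and 0.393). For genes picked by smallest p, in this and the other lists, a lack of overlap is no separate result. Of all tested genes, 27.6% were lower in this way. An unadjusted limma p under 0.05 was found for 2 mitochondrial ribosomal protein genes with higher and 7 with lower levels, against 4.17% and 6.99% of all tested genes. Of the 28 translation genes, 10 were above 0 and 18 below (median -0.10). Oxa1l, which inserts proteins into the mitochondrial inner membrane, had the smallest p, with 40.6 and 52.7 TPM in Setd2D/D and 63.2 and 59.9 TPM in Setd2f/f (log2 change -0.40, limma adjusted p = 0.471). Vars2, the mitochondrial valyl-tRNA synthetase, was also lower in both Setd2D/D libraries (log2 change -0.52, limma adjusted p = 0.512), while Rars2, the arginyl counterpart, was higher in both (log2 change 0.27, limma adjusted p = 0.557). Tufm, the mitochondrial elongation factor, was at 107.6 and 107.8 TPM in Setd2D/D and 91.6 and 91.8 TPM in Setd2f/f (limma adjusted p = 0.486). Of the 9 regulators of mitochondrial content, 2 were above 0 and 7 below (median -0.11). Gabpa, a transcription factor of respiratory chain genes, was at 40.4 and 48.9 TPM in Setd2D/D and 72.4 and 65.7 TPM in Setd2f/f (log2 change -0.62, limma adjusted p = 0.339), with a log2 fold change of -0.10 in the authors' deposited table (FDR = 0.885). Ppargc1b, a coactivator of mitochondrial biogenesis, was at 2.52 and 2.11 TPM in Setd2D/D and 2.58 and 4.2 TPM in Setd2f/f (limma adjusted p = 0.731).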

How the data were processed

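RNA sequencing of LSK cells was deposited as processed tables of the whole series. The authors deposited TPM per gene for 4 libraries. The authors' deposited comparison holds, per gene, p-values with their FDR, the F statistic (used here as a score), the fold as a linear ratio and as log2, and mean abundance in log2 CPM. The submitters' processing notes name cutadapt, RSEM, edgeR and mm10 without roles or versions. In 5 rows of the first table and 2 of the second the gene name filled more than 1 field and moved the values; the fields were rejoined. Of 46517 gene identifiers, 46005 matched GENCODE M21.

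TPM are not counts, so limma 3.58.1 in R 4.3.3 was fitted to log2(TPM + 1) with genotype as the only term, an abundance trend and two-sided tests, after a filter at TPM 1 in 2 libraries, and p-values were adjusted over all genes. Changes on this scale understate those of low genes. The fit was run on simulated data whose spread was set by a formula, not taken from these replicates. Its power on these libraries is therefore not known from that run. Near-identical copies were found with BLAST 2.17.0 against GENCODE M21 transcripts. In the fit with copies, their rows were merged into the genes' rows. The members and lists were chosen with earlier results of these data known. All messenger and ribosomal RNAs are named; nuclear genes were eligible as the 4 of a list with the lowest limma p above 1 TPM on average, plus Polrmt, Tfam, Lrpprc and Ppargc1b, and the text gives some of them. One marker of the list is not reported here. Mrpl23 was added after its values were seen. Transfer RNAs were to be named by level or call, but all were at 0, so mt-Ts1 is named as the one in the authors' deposited table. Alternatives are given in the closing part. Same-numbered libraries shared only a number.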

Additional observations from a re-analysis of the deposited data

How the results depend on the processing

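Under other pseudocounts (0.1 and 0.5), without a filter, with one at 5 TPM, under each rescaling, each moderation and with each library left out, limma called 0 of the members and 0 of the nuclear genes tested, and with the copies summed it called 0 of the members. Over all genes it called 3 higher and 7 lower, but 3 and 16 without the abundance trend, 1 and 2 with a pseudocount of 0.1, and 0 and 0 without the filter, with the replicate block or with any library left out. The median log2 change of the messenger RNAs was 0.37 on own rows, between 0.22 and 0.53 with a library left out, and 0.57 with the copies summed and without Setd2f/f replicate 1. On own rows, the log2 ratio of summed levels was 0.40 for all messenger RNAs (0.26 to 0.55 with a library left out). It was 0.01 for ribosomal RNAs (-0.23 to 0.30), 0.05 for complex IV (-0.089 to 0.20) and 0.73 for complex V (0.63 to 0.83). With the copies summed it was 0.39 for all messenger RNAs, 0.19 for complex IV and 0.64 for complex V. For mt-Atp6, whose own row had a log2 change of 0.04, it was -0.038 after quantile normalisation and between -0.51 and 0.58 with a library left out. For mt-Co1 it was -0.30 after quantile normalisation, and -0.28 with copies summed as well. Combining the copies with rescaling, the block or a left-out library was chosen after seeing the data. With copies summed, mt-Co2 was at 0.25, and at 0.28 with trimmed means of M values, 0.30 with median-of-ratios factors, 0.28 with the nuclear total and 0 with quantile normalisation, and with a library left out 0.19, 0.31, 0.40 and 0.10 (Setd2D/D replicates 1 and 2, then Setd2f/f replicates 1 and 2). The mt-Nd3 change was between -1.20 and 0.81 with a library left out; with copies summed it was 0.20, and 0.22 with trimmed means of M values, 0.25 with median-of-ratios factors, 0.22 with the nuclear total, 0.20 with quantile normalisation, and with a library left out 0.14, 0.25, 0.34 and 0.055 in the same order. With a library left out, mt-Rnr1 was between -0.069 and 0.33 and mt-Rnr2 between -0.49 and 0.24. The causes of the reversals under left-out libraries and quantile normalisation were not tested. The replicate block changed no call among the members and nuclear genes and gave the same changes, 0.25 for mt-Co2 and 0.20 for mt-Nd3 with copies summed; deviations of same-numbered libraries correlated at r = 0.04 across genes, so the pairing rests on a number only.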
